A study of Mus musculus with 3 samples.

Results

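CpG methylation was described at 46 homeobox genes that lie outside the Hox clusters, of 22380 protein-coding genes in the annotation. They were chosen by name: Lhx1, Lhx2, Lhx3, Lhx4, Lhx5, Lhx6, Lhx8 and Lhx9; Six2, Six3 and Six6; Nkx2-1, Nkx2-2, Nkx2-3, Nkx2-5, Nkx2-9, Nkx6-1 and Nkx6-2; Dlx1 to Dlx6; Irx1 to Irx6; Otx1 and Otx2; and Emx1, Emx2, Barhl1, Barhl2, Msx1, Msx2, Meis1, Meis2, Pitx1, Pitx3, En1, En2, Gbx2 and Isl1. Each gene was taken with 5000 bp on either side. CpGs were used where more than 10 reads covered them, which gave 7482 CpGs in these windows of 1236267 in all.

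Methylation was measured by reduced-representation bisulfite sequencing (RRBS), which reads the ends of DNA fragments cut by MspI and so favours CpG-rich DNA. Unmethylated cytosines are converted by bisulfite and methylated ones are not, so that the level of a CpG is its share of methylated reads. Mouse embryonic stem (ES) cells of 3 genotypes were compared, with 1 library each, and no difference between genotypes has a replicate check. All were grown in serum with LIF. The wild-type cells came from blastocysts of mixed 129-C57Bl/6 background and were kept on feeder cells or gelatine. The Dnmt3a KO cells had the same background, were kept on gelatine and carried a CRISPR disruption of the shared part of Dnmt3a, which encodes a de novo methyltransferase with a long and a short isoform. The Dnmt TKO cells were of strain J1, were kept on gelatine and lack Dnmt1, Dnmt3a and Dnmt3b. They served as the background of the assay. Genotype, culture support and library cannot be told apart in this design, nor strain in the case of Dnmt TKO.

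Homeobox proteins bind DNA through a conserved homeodomain and set regional and cell identity in the embryo: Lhx, Emx, Otx, Barhl and En genes in the nervous system, Nkx genes in ventral organs and the neural tube, Dlx genes in the ventral forebrain and facial skeleton, and Irx genes in heart, limb and neural tissue. In ES cells, their promoters usually lie in broad CpG islands that are bound by Polycomb group proteins and free of methylation. The borders of such islands, known as shores, are places where de novo methyltransferases and the oxidation of methylcytosine both act.

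At the member CpGs used in both wild type and Dnmt3a KO (shared CpGs, 4785 of 631561), the median depth was 52 reads for wild type against 23 for Dnmt3a KO. The windows hold 26805 CpGs in the mm9 sequence, and 23.9% of them were used in the wild-type library, 21.1% in that of Dnmt3a KO and 10.3% in that of Dnmt TKO. The library of Dnmt TKO was the shallowest, with a median of 15 reads at the shared member CpGs that it covered. Chromosomes 1 and 8 took up more of it: of all CpGs listed for wild type, Dnmt3a KO and Dnmt TKO, in this order, chromosome 8 held 7.72%, 9.06% and 12.8%, and chromosome 1 held 6.90%, 7.68% and 10.5%. Values without the members on these chromosomes stand beside the results on flanks, well methylated CpGs and called CpGs. The exon 7 targeted in Dnmt3a KO had 0 listed CpGs in every library, so the genotype could not be checked there. Promoters of the stem cell genes Sox2, Zfp42, Tdgf1 and Pou5f1 were below 2% in each library that covered them, and that of Nanog was not covered. The promoter of Esrrb had 60.6% over 7 CpGs in wild type and 30.3% over 3 CpGs in Dnmt3a KO. These means are over the CpGs of each library and not over the same CpGs.

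Every window held at least 1 CpG-rich core. A core was a CpG island by sequence (windows of 500 bp with 55% GC or more and a ratio of observed to expected CpGs of 0.65 or more) whose mean methylation in wild type was below 20%. An island at 20% or more was set apart as a methylated island, and every other CpG of the window was called flank. The 46 windows held 144 core islands, and a core covered the gene start in 38 of them. The median of the summed core length was 3818 bp a gene, against 1426 bp over protein-coding genes with a core. Of the 4785 shared CpGs, 4240 lay in cores, 533 in flanks and 12 in methylated islands. Means are over CpGs. Their 95% intervals (Wilson intervals at the effective number of reads, Newcombe intervals for differences) cover counting error only, and they treat CpGs on the same read and any PCR copies as independent.

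Stretches of 100 bases from mm9, plus strand, show what was measured around these genes. Capitals mark each CpG with more than 10 reads in both wild type and Dnmt3a KO. The first comes from the core just upstream of the start of En2, an engrailed gene of the midbrain and hindbrain. It holds 14 CpGs, all measured and all at 0% in wild type (44 to 87 reads) and in Dnmt3a KO (23 to 35 reads).
En2 upstream, chr5:28492093-28492192: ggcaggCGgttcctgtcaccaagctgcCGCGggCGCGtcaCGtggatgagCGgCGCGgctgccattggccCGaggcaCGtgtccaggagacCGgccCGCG

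Next are 6 stretches that hold CpGs called lower in Dnmt3a KO by the test described further on.
En1 upstream, chr1:122497777-122497876: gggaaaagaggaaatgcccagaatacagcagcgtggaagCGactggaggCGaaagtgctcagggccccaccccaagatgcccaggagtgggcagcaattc
En1 intron, chr1:122501548-122501647: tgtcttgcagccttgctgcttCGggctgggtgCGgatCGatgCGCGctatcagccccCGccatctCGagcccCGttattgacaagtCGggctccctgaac
Barhl1 upstream, chr2:28773177-28773276: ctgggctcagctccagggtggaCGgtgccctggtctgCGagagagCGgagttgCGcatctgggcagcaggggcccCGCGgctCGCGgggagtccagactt
Nkx2-5 upstream, chr17:26981299-26981398: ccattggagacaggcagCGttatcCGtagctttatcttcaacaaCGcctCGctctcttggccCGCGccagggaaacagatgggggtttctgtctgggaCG
Pitx1 upstream, chr13:55938545-55938644: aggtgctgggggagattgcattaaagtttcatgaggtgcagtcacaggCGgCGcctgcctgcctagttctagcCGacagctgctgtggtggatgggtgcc
Lhx2 exon, chr2:38215382-38215481: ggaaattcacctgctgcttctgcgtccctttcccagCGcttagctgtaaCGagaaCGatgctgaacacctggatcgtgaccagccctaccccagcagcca

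The mean over measured CpGs went from 63.2% in wild type to 3.57% in Dnmt3a KO in the stretch upstream of En1, and from 13.2% to 1.34% in its intron. It went from 24.0% to 7.15% upstream of Barhl1, from 30.2% to 7.06% upstream of Nkx2-5, from 32.8% to 3.33% upstream of Pitx1 and from 55.6% to 16.5% in the exon of Lhx2. A further 3 stretches kept most of their methylation in Dnmt3a KO.
Irx4 upstream, chr13:73395250-73395349: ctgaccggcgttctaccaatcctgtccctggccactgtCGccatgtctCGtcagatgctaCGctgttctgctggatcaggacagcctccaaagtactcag
Irx6 exon, chr8:95201244-95201343: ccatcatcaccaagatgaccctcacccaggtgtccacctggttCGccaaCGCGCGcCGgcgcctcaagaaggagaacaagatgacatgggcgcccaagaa
Lhx4 intron, chr1:157551734-157551833: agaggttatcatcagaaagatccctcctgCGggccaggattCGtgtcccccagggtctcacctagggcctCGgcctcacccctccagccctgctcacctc

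The 3 CpGs measured upstream of Irx4 had 90.0% in wild type against 78.9% in Dnmt3a KO, the 5 in the exon of Irx6 had 87.0% and 67.7%, and the 3 in the intron of Lhx4 had 87.4% and 70.0%. The kept stretches were picked from flank CpGs with at least 80% in wild type, so their high wild-type values are a choice and not a result. They hold 3 to 7 CpGs each, and the stretches with called CpGs hold 3 to 9. In Dnmt TKO, 0 methylated reads were found at any CpG of the printed stretches that it covered.

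Cores, which were chosen for a wild-type mean below 20%, were nearly free of methylation in wild type and lower still in Dnmt3a KO. The mean of 4240 core CpGs was 1.92% in wild type against 0.652% in Dnmt3a KO (difference -1.27 points, 95% interval -1.35 to -1.18). In Dnmt TKO the mean of 2372 core CpGs was 0.0332%. The core mean was below 5% in wild type in 42 members and below 1% in 17. It was lower in Dnmt3a KO than in wild type in 42 members. Over the core CpGs of all protein-coding genes, the corresponding values were 0.892%, 0.373% and 0.0428%.

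The highest core means belonged to Lhx3, Nkx2-5 and Barhl1. Lhx3, a LIM homeobox gene of the pituitary and motor neurons, had a core mean of 11.6% for wild type, 5.20% for Dnmt3a KO and 0.352% for Dnmt TKO. Nkx2-5, a gene of the early heart, had 10.7%, 2.65% and 0%. Barhl1, a gene of the inner ear and cerebellum, had 9.36%, 4.04% and 0%. Next came Irx4, a gene of the heart ventricle, with 5.57% in wild type against 0.669% in Dnmt3a KO. The differences were -6.45 points (95% interval -8.69 to -4.20) for Lhx3, -8.04 points (-9.41 to -6.64) for Nkx2-5, -5.32 points (-6.96 to -3.58) for Barhl1 and -4.91 points (-6.24 to -3.44) for Irx4. The value of Lhx3 rests in part on a core at chr2:26061654-26062616 with 20.3% in wild type over 20 shared CpGs. The limit of 20% was applied to all CpGs used in wild type, over which that core was below it. None of the cores of Lhx3, Nkx2-5 and Barhl1 covered the annotated gene start, but some ended close to it. A core of Barhl1 ended at 28772171, beside a start at 28772188, and one of Nkx2-5 at 26978483, beside a start at 26978510. In wild type, that core of Barhl1 had 1.07% over 7 CpGs, while other cores of the gene had 10.7% and 13.15%. That of Nkx2-5 had 16.8% over 3 CpGs.

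In 4 members, the core mean was higher in Dnmt3a KO, by less than 0.3 points each: Lhx9, Six6, Dlx6 and En2. Only for En2 did the interval lie above 0, with 0.0756% in wild type against 0.301% in Dnmt3a KO (difference 0.225 points, 0.0522 to 0.491, 109 CpGs). It is 1 of 46 core intervals, which cover counting error only. The Dnmt3a KO value of En2 is below the mean of 0.652% over the cores of all members in that library. In Dnmt TKO, 62 core CpGs of En2 had 0%.

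Within cores, methylation was higher toward the edge. More than 500 bp inside a core, 2008 member CpGs had 0.736% in wild type against 0.292% in Dnmt3a KO. From 250 to 500 bp inside the values were 2.29% and 0.756%, and less than 250 bp inside they were 4.85% and 1.56%. Outside, less than 250 bp from the edge, they were 9.82% and 4.22% over 114 CpGs.

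**Figure D1:**
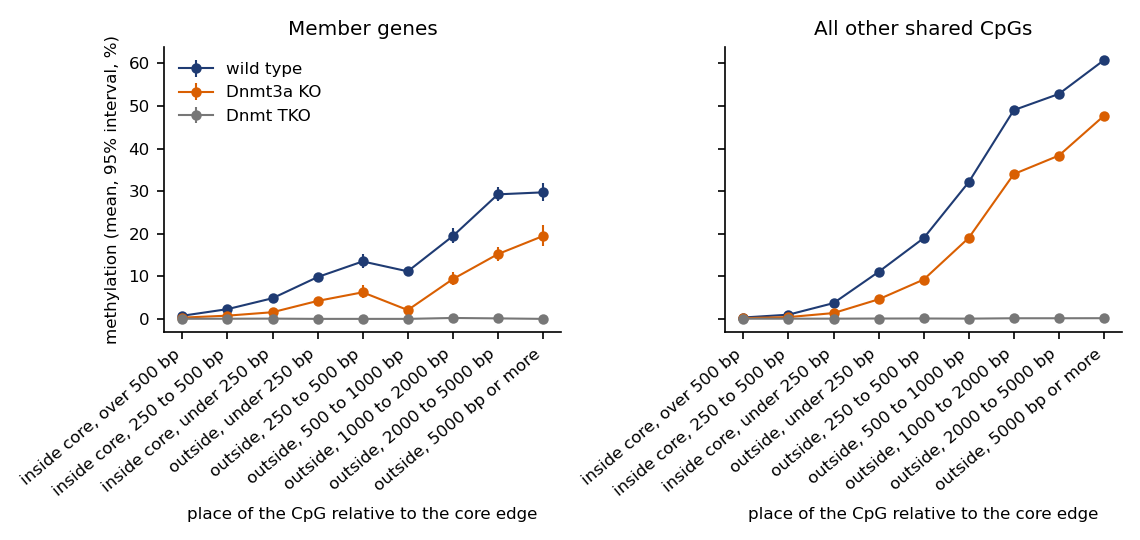
Mean CpG methylation (%) by distance from the edge of a core, for the member genes and for all other shared CpGs, with 95% intervals and lines for wild type, Dnmt3a KO and Dnmt TKO. Member CpGs at 2000 to 5000 bp outside a core had 29.2% in wild type against 15.2% in Dnmt3a KO, while all other shared CpGs at that distance had 52.8% and 38.4%.

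The surroundings of the member genes stayed low in wild type over a long distance from cores as defined here, with windows of 500 bp. With islands of at least 200 bp, 170 member flank CpGs were left in place of 533. Much of these surroundings thus counts as island under that definition, for which distances were not computed. From 500 to 1000 bp outside a core, 103 member CpGs of 17 genes had 11.2% in wild type against 2.07% in Dnmt3a KO (difference -9.08 points, 95% interval -10.3 to -7.85), so that 18.6% of the wild-type mean was left. All other shared CpGs at this distance had 32.1% and 19.0%, with 59.2% left, so their wild-type level was higher as well. Nearer to the core the shares were close. Less than 250 bp outside, 42.9% was left at members against 41.6% elsewhere, and from 250 to 500 bp 46.2% against 48.7%. From 1000 to 2000 bp the member values were 19.4% and 9.34% (48.05% left), against 49.0% and 34.0% elsewhere (69.35% left). At 5000 bp or more they were 29.7% and 19.5% (65.5% left), against 60.8% and 47.7% (78.5% left). The number of genes behind a distance was between 8 and 46, so neighbouring distances hold different genes. The differences between members and other CpGs were not tested.

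Flank methylation was lower in Dnmt3a KO. The mean of 533 flank CpGs, from 39 members, was 18.4% in wild type against 8.91% in Dnmt3a KO (difference -9.51 points, 95% interval -10.35 to -8.66). The Dnmt3a KO mean was 48.4% of the wild-type mean. Without the members on chromosomes 1 and 8, the difference was -8.77 points (-9.63 to -7.88, 398 CpGs). With runs of CpGs that were unmethylated in wild type in place of sequence islands as cores, 362 flank CpGs remained and the difference was -17.5 points. That choice takes CpGs with low wild-type levels out of the flanks, which makes the difference larger by itself. In Dnmt TKO, 362 flank CpGs had 0.0679%. Of the 533 CpGs, 352 were lower in Dnmt3a KO, 43 were higher and 138 were equal. By annotation, the difference was -13.6 points upstream of the gene (108 CpGs, 21.5% in wild type), -10.03 points in coding exons (103 CpGs, 23.8%), -10.02 points past the gene end (100 CpGs, 19.2%), -7.35 points in introns (166 CpGs, 15.3%) and -6.17 points in untranslated exons (50 CpGs, 10.6%).

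Of the 46 members, 7 had no shared flank CpG (Lhx3, Six2, Six6, Nkx2-5, Nkx2-9, Irx5 and Emx1). Another 5 had fewer than 5: Dlx2 had 53.4% in wild type against 19.2% in Dnmt3a KO over 4 CpGs, Lhx8 had 33.3% and 16.9% over 3, and Msx1, Nkx2-1 and Irx2 were at 0% in both libraries over 1 or 2. In the 34 remaining members, the flank mean was lower in Dnmt3a KO in 32, and the interval of the difference lay below 0 in 28. It was lower by at least 10 points in 16 members. The median over these 34 genes was 16.5% in wild type, 4.30% in Dnmt3a KO and -8.97 points for the difference. Over the 6193 protein-coding genes with at least 5 shared flank CpGs, the medians were 58.9%, 41.9% and -12.2 points, the flank mean was lower in 5902 genes, and it was lower by at least 10 points in 3774. The wild-type level bounds how much lower a flank can be.

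**Figure D2:**
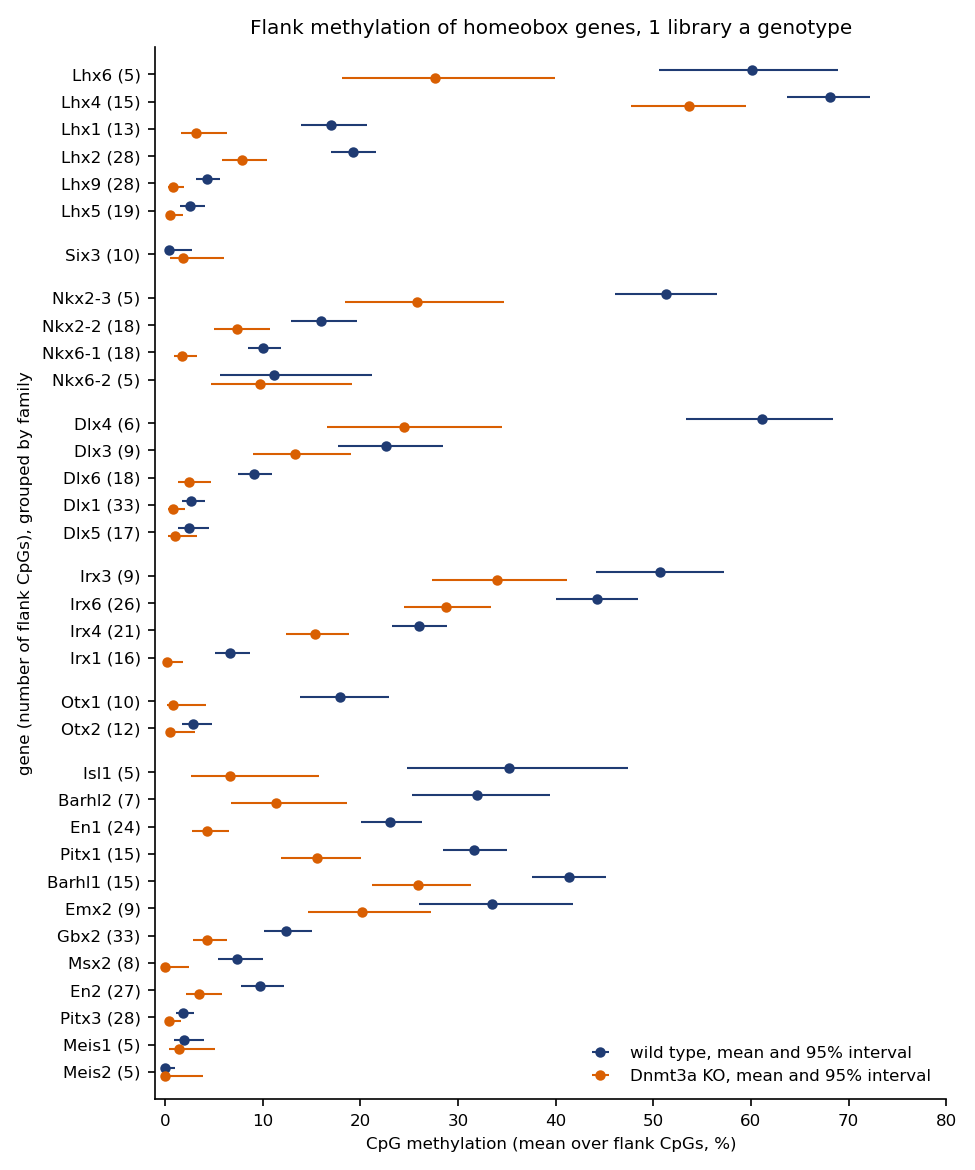
Mean methylation (%) of the flank CpGs of the 34 member genes with at least 5 of them, by family, in wild type and Dnmt3a KO, with 95% counting intervals and 1 library a genotype. The Dnmt3a KO mean lies left of the wild-type mean in 32 genes, and wild-type means run from 0% (Meis2) to 68.1% (Lhx4).

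The Lhx genes encode LIM-homeodomain proteins, most of them active in the forebrain, spinal cord and pituitary. Their 111 shared flank CpGs had 21.2% in wild type against 11.6% in Dnmt3a KO (difference -9.55 points, -11.4 to -7.60), and 60 flank CpGs covered in Dnmt TKO had 0%. Lhx1, needed for head and kidney formation, had the most shared CpGs of the family (181) and went from 17.0% to 3.22% over 13 flank CpGs. Lhx6, a gene of cortical interneurons, had 60.1% in wild type against 27.7% in Dnmt3a KO over 5 CpGs (difference -32.5 points, -45.5 to -17.0). Lhx4, a close relative of Lhx3, was the most methylated in wild type and kept most of it, with 68.1% and 53.7% over 15 CpGs (78.8% of the wild-type mean). The 95% intervals of Lhx6 and Lhx4 overlapped in wild type and not in Dnmt3a KO. Lhx2 had 19.2% and 7.86%, and Lhx5 and Lhx9 were below 5% in both libraries.

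The genes Six2, Six3 and Six6 act in eye, forebrain and kidney progenitors. The only flank CpGs were 10 of Six3, with 0.392% in wild type against 1.82% in Dnmt3a KO, and the interval of the difference held 0 (1.43 points, -1.25 to 5.68). Six3 had the most shared CpGs of the family (166), and 156 of them lay in 7 core islands. None of their CpGs reached 50% in wild type.

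The Nkx genes pattern the heart, thyroid, lung, pancreas and ventral neural tube. Their 47 flank CpGs had 16.6% in wild type against 7.27% in Dnmt3a KO (difference -9.34 points, -11.8 to -6.76). Nkx2-2, a gene of pancreatic islets and the ventral neural tube, had the most shared CpGs (169) and went from 16.0% to 7.41% over 18 flank CpGs. Within 2000 bp of a core, 15 of these had a difference of -2.44 points (-4.53 to -0.761), so the larger value rests on the CpGs farther away. Nkx2-3, a gene of gut mesoderm and spleen, had 51.3% and 25.8% over 5 CpGs (difference -25.6 points, -34.5 to -15.2). In windows of 10000 bp its difference was -9.82 points over 14 CpGs (-13.9 to -5.35). Nkx6-1, a gene of beta cells and motor neurons, had 10.02% and 1.71% over 18. Nkx6-2, which acts in neural progenitors and oligodendrocytes, had 11.2% and 9.76% over 5 CpGs, with an interval that held 0.

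The Dlx genes lie in neighbouring pairs that share the ventral forebrain and branchial arches as sites of action. Their 87 flank CpGs had 12.4% in wild type against 4.97% in Dnmt3a KO (difference -7.42 points, -9.14 to -5.63). Within each pair the windows differed. Dlx4 had 61.1% and 24.4% over 6 flank CpGs, the largest difference of any member with at least 5 (-36.7 points, -47.4 to -23.9), beside 22.6% and 13.3% over 9 for Dlx3, a gene of skin and placenta. Dlx6 had 9.06% and 2.49% over 18, beside 2.49% and 1.01% over 17 for Dlx5. Dlx1 had 2.68% and 0.843% over 33, but 1.28 points more in Dnmt3a KO at the 6 of its flank CpGs that all 3 libraries covered. Dlx2 had the most shared CpGs of the family (158), and 154 of them were in its cores, which are up to 3288 bp long, at 1.15% and 0.361%.

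The Irx genes lie in 2 clusters, with Irx1, Irx2 and Irx4 on chromosome 13 and Irx3, Irx5 and Irx6 on chromosome 8. Of the 7 groups they had the most methylated flanks in wild type, at 30.9% against 18.9% in Dnmt3a KO over 73 CpGs (difference -12.03 points, -14.9 to -9.09), and 81 flank CpGs covered in Dnmt TKO had 0%. They also kept more of it than the members as a whole, 61.1% against 48.4%, a difference that was not tested. Irx3, which is active in the neural tube and in fat, had the most shared CpGs of any member (203) and 50.7% in wild type against 33.9% in Dnmt3a KO over 9 flank CpGs. Irx6 had 44.2% and 28.8% over 26, and Irx4 had 26.0% and 15.4% over 21. When the reads of all CpGs of a flank were pooled, each of these 3 intervals held 0: the difference was -6.89 points for Irx3 (-15.6 to 2.16), -3.86 points for Irx6 (-9.24 to 1.72) and 0.0749 points for Irx4 (-3.89 to 4.26). Irx1 kept least, with 6.69% and 0.250% over 16. The chromosome 8 cluster is on a chromosome with a larger share of CpGs in Dnmt3a KO, as given above.

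Of the Otx genes of the anterior brain, Otx1 had 17.9% in wild type against 0.833% in Dnmt3a KO over 10 flank CpGs (difference -17.1 points, -22.2 to -11.8), which left 4.65% of the wild-type mean. Otx2, also a gene of the epiblast, had 2.90% and 0.521% over 12, with an interval that held 0. Within 2000 bp of a core, Otx1 had 4 flank CpGs and a difference of -4.96 points (-11.1 to 3.40), so the larger value rests on CpGs farther away.

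The 14 other members had 17.2% in wild type against 6.97% in Dnmt3a KO over 183 flank CpGs (difference -10.17 points, -11.5 to -8.79). Isl1, a LIM-homeobox gene of motor neurons, heart progenitors and islets, had 35.2% and 6.69% over 5 CpGs. Barhl2, active in retina and spinal cord, had 31.9% and 11.4% over 7. En1, a gene of the midbrain, hindbrain and limb, had 23.03% and 4.29% over 24 (difference -18.7 points, -22.3 to -15.03). Gbx2, which sets the hindbrain border and is expressed in ES cells, had the most shared CpGs of this group (155) and went from 12.4% to 4.31% over 33. At the 5 flank CpGs of Gbx2 with over 20 reads the difference was 1.48 points, and at the 4 with over 30 reads 1.86 points.

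At the other end were Pitx3, Meis1 and Meis2. Pitx3, a gene of the lens and dopamine neurons, had 1.85% in wild type against 0.422% in Dnmt3a KO over 28 CpGs. Meis1 and Meis2, which encode cofactors of Hox proteins, had 1.91% and 1.43%, and 0% and 0%, over 5 CpGs each. Flanks of Emx2, Barhl1, Pitx1, Msx2 and En2 had 7.38% to 41.3% in wild type and 0% to 25.9% in Dnmt3a KO.

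Flank values of single genes rest on few CpGs and moved with the choice of CpGs. Of the 28 members with an interval below 0, the interval held 0 under at least 1 of the alternatives in 21, at times with 1 or 2 CpGs left. It did not in the alternatives that could be computed for Barhl1, Dlx4, En1, Isl1, Lhx2, Lhx6 and Nkx2-3. The difference kept its sign and moved by over 1.5 times under at least 1 alternative in 25 of the 28, all but Dlx4, Isl1 and Lhx4. With over 20 reads, it was -11.05 points for En1 (13 CpGs), -5.54 points for Lhx2 (14), -5.79 points for Lhx1 (4) and -2.38 points for Barhl2 (2). With runs of CpGs unmethylated in wild type as cores, it was -17.7 points for Lhx6 (15 CpGs).

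Methylated islands were found in 5 windows. That of En1, at chr1:122496286-122496864 upstream of the gene, had 40.7% in wild type against 0% in Dnmt3a KO over 3 CpGs. In each library, 34 reads covered these 3 CpGs in total. That of Barhl1, at chr2:28766698-28767843 within the gene, had 27.6% and 10.01% over 8 CpGs (difference -17.6 points, -26.5 to -7.90). That of Dlx4 had 1 shared CpG, at 50.8% and 38.1%. Those of Irx5 and Lhx8 had none.

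CpGs that were well methylated in wild type are those with room to lose. At least 50% was reached at 90 shared CpGs in 20 members, at 67.9% on average in wild type against 40.4% in Dnmt3a KO (difference -27.6 points, -30.8 to -24.3), and the difference was -30.5 points at the 51 outside chromosomes 1 and 8. Choosing CpGs by their wild-type level makes the difference larger by itself, and at 36 CpGs chosen for at least 50% in Dnmt3a KO it was -10.5 points. Among genes with at least 5 of them, En1 had the lowest Dnmt3a KO mean, with 58.9% and 10.9% over 6 CpGs. Next were Lhx2 with 64.4% and 26.8% over 6, Dlx4 with 66.2% and 27.5% over 5, and Lhx6 with 60.1% and 27.7% over 5. Irx3, Irx4 and Irx6 had 63.3% to 78.0% in wild type and 43.8% to 61.5% in Dnmt3a KO, and Lhx4 had 75.7% and 58.5% over 13. Within Irx4 the CpGs differed: 4 upstream CpGs with 67.3% to 91.3% in wild type had 70.6% to 86.05% in Dnmt3a KO, while intron CpGs with 47.4% and 52.6% in wild type were at 0%.

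**Figure D3:**
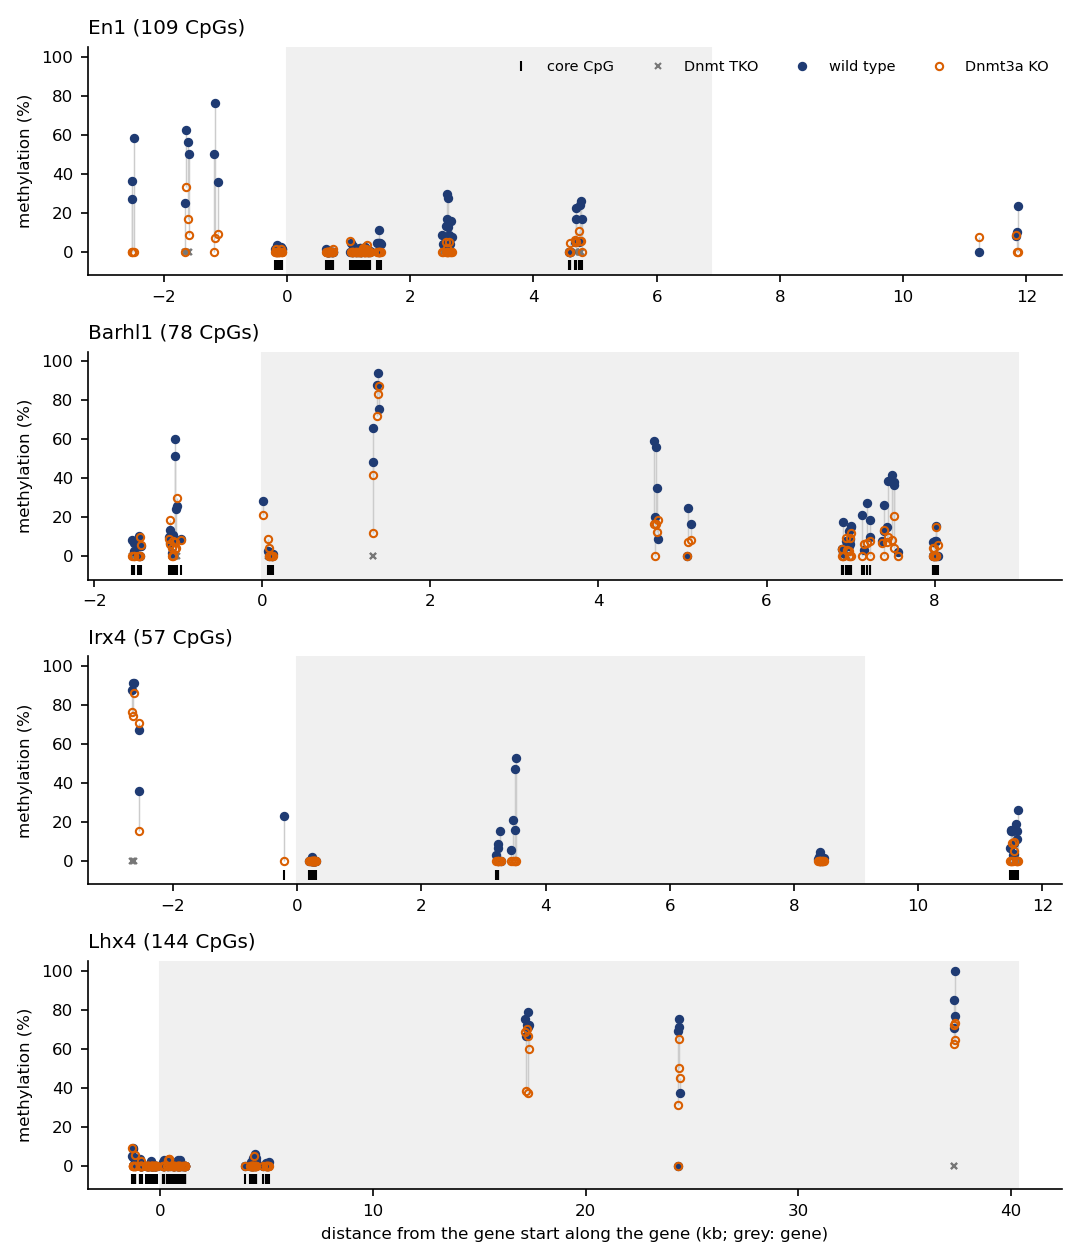
Methylation (%) of each shared CpG of En1, Barhl1, Irx4 and Lhx4 by distance (kb) from the gene start along the gene, for wild type (filled), Dnmt3a KO (open) and, where covered, Dnmt TKO (crosses, all near 0), with the gene in grey and core CpGs ticked below. Upstream of En1 the wild-type CpGs reach 76.5% and the Dnmt3a KO values lie well below them, while Lhx4, with a flank difference of -14.4 points (-21.6 to -7.10), holds CpGs with small gaps (72.2% and 70.4%) beside CpGs with large ones (69.1% and 31.3%).

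Single CpGs were compared by Fisher's exact test, two-sided, adjusted over all 631561 shared CpGs by the Benjamini-Hochberg method, with a call at an adjusted p below 0.05 and a difference of at least 20 points. The test compares 2 libraries and not 2 genotypes. Among the 4785 member CpGs, 18 were called lower in Dnmt3a KO (0.376%), beside a background of 1.64% of all shared CpGs. Among those with at least 20% in wild type, it was 18 of 234 (7.69%), beside 6.59%. None was called higher, beside 0.0304% of all shared CpGs. At an unadjusted p below 0.05, 139 of the 4785 member CpGs were lower (2.9%) and 0 higher. The share of all shared CpGs at this limit was not computed, so these counts are not a result about the members. Outside chromosomes 1 and 8, 14 member CpGs were called lower and 0 higher. With an adjusted p below 0.01, 9 were called lower, and with 11 reads drawn from each library 0 were, as were 0 of all shared CpGs. No background share stands beside the counts outside chromosomes 1 and 8 and at an adjusted p below 0.01. At the main limits, the called share of all member CpGs was thus below the background. At 20% or more in wild type it was close to the background.

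The 18 called CpGs belonged to 11 members. They were 10 of the 533 flank CpGs and 8 of the 4240 core CpGs. By wild-type level, 4 of 76 flank CpGs were called at 20% to 50%, 6 of 63 at 50% to 80% and 0 of 17 above. In flanks of all protein-coding genes the counts were 822 of 17028, 3700 of 45953 and 2169 of 39761. Of the member core CpGs, 5 of 63 were called at 20% to 50% and 3 of 6 at 50% to 80%. In cores of all protein-coding genes they were 241 of 3297 and 71 of 313. These differences were not tested. Within 1000 bp of a core edge lay 15 of the 18, as did most member CpGs. In Dnmt3a KO, 6 of the 18 were at 0%. Dnmt TKO covered 14, each with 0 methylated reads. The largest difference was at chr1:122497826, upstream of En1 and -1169 bp from its start, with 26 of 34 reads methylated in wild type and 1 of 14 in Dnmt3a KO (Fisher's exact test, adjusted p = 0.00245). En1 also had 2 called CpGs in its intron, at positions 122501590 and 122501605, with 29.5% and 27.4% in wild type against 0% in Dnmt3a KO.

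Barhl1 had 3 called CpGs. Position 28773230, upstream and inside a core, had 38 of 63 methylated reads in wild type and 1 of 28 in Dnmt3a KO (Fisher's exact test, adjusted p = 8.28e-05), which was the smallest adjusted p of any member. Its neighbour at 28773222 had 51.6% and 7.41%. The coding CpG at 28770875 had 65.7% and 12.0%. The CpGs at 28773222 and 28773230 can be covered by the same read and are not independent.

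Next by size were a coding CpG of Lhx2 (chr2:38215431, 70.8% in wild type against 7.69% in Dnmt3a KO) and one past the end of Lhx6 (chr2:35937087, 69.2% and 7.69%). Emx2, a gene of the cortex and urogenital tract, had an intronic CpG with 53.3% and 0% over 15 and 16 reads, close to the limit of the test (Fisher's exact test, adjusted p = 0.0488). The upstream CpG of Nkx2-5 at chr17:26981348 had 53.2% and 6.67%. Past the end of Nkx2-3, chr19:43694655 had 77.9% and 35.7%. Upstream of Pitx1, a gene of the hindlimb and pituitary, chr13:55938596 had 38.6% and 0%. The remaining called CpGs lay in Irx5, Pitx1, Lhx5, Nkx2-2, Nkx2-5 and Lhx6, with 23.2% to 37.5% in wild type and 0% to 5.41% in Dnmt3a KO.

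**Figure D4:**
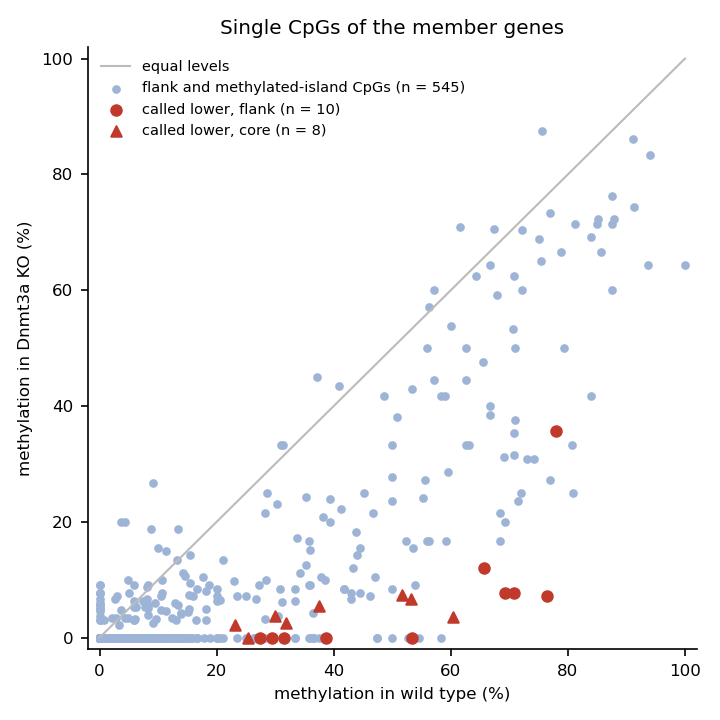
Methylation (%) in wild type (x axis) against Dnmt3a KO (y axis) of 545 flank and methylated-island CpGs of the member genes, with the 18 called CpGs in red, circles in flanks and triangles in cores. Most points lie below the line of equal levels, and of 533 flank CpGs 352 were lower in Dnmt3a KO.

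The share of methylation left in Dnmt3a KO was set beside that of other genes for CpGs of like level in wild type. Flank CpGs with 20% to 50% in wild type had 33.6% in wild type against 10.04% in Dnmt3a KO at members (76 CpGs), which left 29.9%. At 70 other homeobox genes it left 38.7% (198 CpGs), at 43 forkhead genes 35.8% (50 CpGs), at 9 Pax genes 36.0% (48 CpGs) and at all protein-coding genes 55.6% (17028 CpGs). Taken within 2000 bp of a core, the shares were 30.4% at members, 31.9% at other homeobox genes, 26.6% at forkhead genes, 24.6% at Pax genes and 43.0% at all protein-coding genes. At 50% to 80% in wild type, members had 57.7% left (63 CpGs) against 65.3% to 75.3% in the other sets, and at 80% or more 74.2% (17 CpGs) against 76.0% to 82.2%. This order did not hold near cores either: at 50% to 80% within 2000 bp of a core, 47.2% was left at members (25 CpGs), against 44.8% at other homeobox genes (36), 30.7% at forkhead genes (5), 32.2% at Pax genes (4) and 63.4% at all protein-coding genes (3708). At 80% or more, the 4 member CpGs within this distance kept 74.5%, against 66.8%, 26.3% and 75.7% at other homeobox, forkhead and all protein-coding genes (5, 2 and 1646 CpGs). The sets hold different numbers of CpGs, and the differences between sets were not tested. Choosing levels in wild type shifts the share left by itself, and the shift can differ in size and direction between sets. From the lowest level to the highest, members had 377, 76, 63 and 17 flank CpGs. All protein-coding genes had 31431, 17028, 45953 and 39761, so more of theirs lay above 50%.

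**Figure D5:**
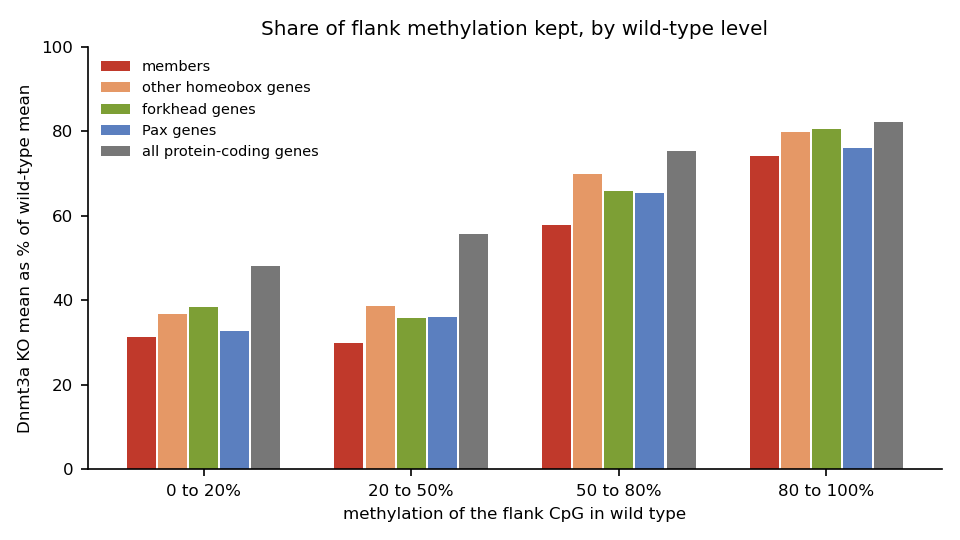
Mean methylation in Dnmt3a KO as a percent of the wild-type mean (bars, from 0) for flank CpGs grouped by their level in wild type, at the member genes, other homeobox genes, forkhead genes, Pax genes and all protein-coding genes. The bar rises with the wild-type level in every set from 20% up, from 29.9% to 74.2% at the members.

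In the Fisher's exact test, other homeobox genes had 87 CpGs called lower (11.8% of those with at least 20% in wild type), forkhead genes 44 (13.5%) and Pax genes 7 (5.38%), with 0 called higher in each. Their core means were 1.88%, 1.09% and 1.70% in wild type. The members had the lowest flank mean of these sets in wild type, with 18.4% against 41.02% at other homeobox genes, 44.5% at forkhead genes and 29.1% at Pax genes.

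In Dnmt TKO, 15 of 42752 reads at member CpGs were methylated, a share of 0.0351% (95% Wilson interval 0.0213 to 0.0579). They fell on 15 CpGs of 11 members with 1 read each, and 35 members had 0. Over all CpGs of the library the share was 0.0931%. For a single gene, the limit that 0 reads allow (3 reads of the total) was 0.212% for Lhx1 with 1418 reads, so levels under that could not be told from 0. At the 165 flank CpGs used in all 3 libraries, wild type had a mean of 16.9%, Dnmt3a KO 8.13% and Dnmt TKO 0%, and at the 2045 such core CpGs they had 1.90%, 0.630% and 0.0385%.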

How the data were processed

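CpG methylation was measured by RRBS in ES cells of 3 genotypes, with 1 library each. The authors digested DNA with MspI, took 2 ranges of insert size, and trimmed the reads (Trim Galore, per the processing notes) and aligned them to mm9 with QuasR and Bowtie (versions not given in the sources used here), leaving out CpGs at known polymorphisms. The methods name a filter on PCR copies for their sequencing in general and do not say whether it was used for RRBS. The deposited values are counts of all reads and of methylated reads per CpG, with their fraction. Listed CpGs had at least 10 reads, and all positions placed on the mm9 sequence were CG (100%).

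From these, levels were computed in Python 3.11.15 (numpy 2.4.6, scipy 1.17.1, pandas 2.3.3) for CpGs with over 10 reads in GENCODE vM1 gene windows. A level is the mean over CpGs of methylated over all reads. Fisher's exact test was checked on simulated data. The members, lists and tests were chosen with earlier results of these data known. All members are given by family. Named with full values were, by a fixed rule, the member of each family with most shared CpGs, the 8 largest and 4 smallest flank decreases among members with at least 5 flank CpGs, the 3 highest core means, members with methylated islands, and the 10 largest called decreases (at most 3 a gene). Irx4 was added to the core means, and the printed stretches were picked, after their values were seen.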

Additional observations from a re-analysis of the deposited data

How the results depend on the processing

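No paired analysis was possible because each genotype has 1 library, and for the same reason no replicate could be left out. The flank difference of -9.51 points was -7.46 with over 20 reads and -7.68 with over 30. With methylated reads divided by all reads it was -6.68, and with windows of 10000 bp -10.73. It was -12.78 with islands of at least 200 bp, which left 170 flank CpGs in place of 533. Outside wild-type blocks (at least 5 consecutive shared CpGs under 20%) it was -17.49, and as a mean over genes -11.06. Within 2000 bp of a core edge, an alternative added after seeing the data, as was leaving out chromosomes 1 and 8, it was -7.87. Leaving out wild-type blocks drops CpGs with low wild-type levels, which makes the flank difference larger by itself. Core means in wild type and Dnmt3a KO were 2.13% with islands of at least 200 bp (wild type), 1.51% and 0.526% with cores under 10%, 1.73% and 0.529% with over 20 reads, 1.66% and 0.576% with pooled reads, and 1.52% and 0.529% in wild-type blocks. In place of 18 CpGs, 9 were called lower at an adjusted p below 0.01 and 0 with 11 reads drawn from each library, a depth at which 0 of all shared CpGs were called. At CpGs chosen for 50% in wild type, the difference of -27.6 points was -22.58 at 80% or more, -20.32 with over 20 reads and -10.47 when chosen for 50% in Dnmt3a KO. Other alternatives of these results stayed within the main interval, or within 1.5 times for counts, with the same direction. Of 279 flank differences of single genes, 7 changed sign. In 4 the main interval lay below 0: Gbx2 was 1.48 with over 20 reads and 1.86 with over 30, Irx4 was 0.0749 with pooled reads, and Dlx1 was 1.28 at CpGs in all 3 libraries. In 3 it held 0: Nkx6-2 was 2.75 at CpGs in all 3 libraries, Meis1 0.709 with windows of 2000 bp and Six3 -1.44 with islands of at least 200 bp. The cause was not tested.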
